A study of Mus musculus with 16 samples.

Results

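Impact, Zrsr1, Commd1, Nnat, Blcap and Gnas are 6 genes at 4 mouse loci known for genomic imprinting, and they were chosen by name from the 50600 genes counted in each library. In imprinting, a mark of DNA methylation set in the egg or the sperm leaves a gene expressed mainly from the copy inherited from 1 parent. Impact, Zrsr1 and Nnat are known as genes expressed from the paternal copy. Zrsr1 and Nnat each lie inside a larger host gene, Commd1 and Blcap respectively, that is expressed from both copies in many tissues. Gnas is a compound locus with several first exons, of which some are imprinted, while the transcript of the stimulatory G protein is expressed from both copies in most cell types. Imprints can be lost when embryonic stem cells are cultured.

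The cells were F1 hybrids of a 129/Sv mother and a Cast/EiJ father, so the 129 allele was always the maternal one and the Cast allele always the paternal one, and strain and parent of origin cannot be told apart. Neural progenitor cell (NPC) clones were derived from 1 female and 1 male embryonic stem cell line that had been grown on feeder fibroblasts, and each clone is a line that grew from a single colony. The study asked how stably single genes are expressed from 1 or both alleles in such clones. There were 12 clones in 16 libraries: astrocytes of the female clones 129, C2 and G4 and the male clones mC3 and mE6, NPCs of the female clone F5 and the male clones mG2 and mG6, and NPCs of the male clones Ch3, Ch5, Ch7 and Ch8. NPCs were kept with the growth factors EGF and FGF2. Astrocytes were made by growing NPC clones with BMP4, a signalling protein that takes progenitors towards the astrocyte fate, and a lower dose of FGF2. The 2 groups thus differ in all of these factors. No clone has libraries of both cell types here, so every difference between the cell types is also a difference between clones. The mix of female and male clones differs too. Astrocytes and the NPCs F5, mG2 and mG6 have 1 poly(A) library a clone. The 4 Ch clones have 2 libraries each, made after ribosomal RNA depletion, so the preparation and the clone cannot be told apart between the Ch clones and the other NPCs.

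The libraries held 69925081 to 105892734 reads on genes in the poly(A) set and 20871111 to 30920672 in the rRNA-depleted set, of which 21555315 to 32518327 and 4193927 to 5971768 could be assigned to an allele. The level of a gene is given as CPM, its count scaled to the reads on genes of the library, which is not divided by gene length. The allelic expression ratio is given in percent as Cast reads among those that carried an allele, where a gene had 20 or more. Ratios under 15% or over 85% are called monoallelic, ratios from 35% to 65% biallelic, and the rest biased. Among the markers of astrocytes, Gfap, Aqp4 and Slc1a2 were higher in the astrocytes than in the poly(A) NPCs, Aldh1l1 was lower, and 4 of 8 did not pass the test. Of 7 progenitor markers, 3 were lower (Nes, Olig2 and Mki67) and 0 higher. Of 4 fibroblast markers tested, 1 was higher in astrocytes (Col1a1), and the summed level of the list was 3.48 to 203 CPM in astrocytes and 1.07 to 2.49 CPM in poly(A) NPCs. Col1a2, a defining marker of fibroblasts, stood at 0 to 0.0639 CPM in astrocytes, and the part of such cells in the results below was not tested. Of 4 stem cell markers tested 2 were lower in astrocytes (Pou5f1 and Dppa5a), of 4 neuron markers 1 was higher (Snap25), and of the oligodendrocyte markers only Mbp could be tested and was not called.

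The promoters of both nested pairs are shown because each imprinted gene starts inside its host. The sequences are the 250 bases before a RefSeq transcription start on GRCm38.p6, read 5′ to 3′ on the strand of the gene, with each CpG dinucleotide, the unit that carries DNA methylation, in capitals.
Zrsr1, chr11:22971755-22972004, plus strand: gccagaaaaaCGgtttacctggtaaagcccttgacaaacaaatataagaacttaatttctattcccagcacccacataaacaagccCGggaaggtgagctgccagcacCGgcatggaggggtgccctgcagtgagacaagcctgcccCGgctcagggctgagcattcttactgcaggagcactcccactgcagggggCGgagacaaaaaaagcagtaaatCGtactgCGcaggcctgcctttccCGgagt
Commd1, chr11:22982285-22982534, minus strand: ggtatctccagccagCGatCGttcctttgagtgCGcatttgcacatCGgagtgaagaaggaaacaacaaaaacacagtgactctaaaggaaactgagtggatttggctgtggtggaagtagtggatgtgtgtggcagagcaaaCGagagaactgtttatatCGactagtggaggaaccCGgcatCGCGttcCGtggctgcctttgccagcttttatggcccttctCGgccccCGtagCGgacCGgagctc
Nnat, chr2:157559828-157560077, plus strand: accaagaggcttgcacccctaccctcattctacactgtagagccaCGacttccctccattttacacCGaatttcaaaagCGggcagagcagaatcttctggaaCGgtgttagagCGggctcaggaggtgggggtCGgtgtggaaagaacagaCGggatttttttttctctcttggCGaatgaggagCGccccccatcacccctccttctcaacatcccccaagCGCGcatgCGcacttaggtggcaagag
Blcap, chr2:157566362-157566611, minus strand: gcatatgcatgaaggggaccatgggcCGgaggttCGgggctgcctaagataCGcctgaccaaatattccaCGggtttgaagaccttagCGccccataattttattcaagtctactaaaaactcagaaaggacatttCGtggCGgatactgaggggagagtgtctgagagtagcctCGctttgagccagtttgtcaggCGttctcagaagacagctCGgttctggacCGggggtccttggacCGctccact

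These windows held 8 CpGs before Zrsr1, 14 before Commd1, 12 before Nnat and 12 before Blcap, against a median of 6 over 32851 windows of the same length. Of all windows, 57.0% held fewer CpGs than that of Zrsr1, 70.6% than that of Commd1 and 66.5% than those of Nnat and Blcap. Commd1 has a second listed start at 22972866, inside Zrsr1 and on the opposite strand, with 13 CpGs in its window. Gnas has 4 listed starts, with 14 CpGs in the window of the first, at 174284320, and 21, 22 and 29 in the windows of those at 174327749, 174327768 and 174330006. In all, 5 of the 6 genes had an entry. The letters TGCCGC, the core bound by the imprint-keeping factor ZFP57 when methylated, were in 0 of the 9 windows of these genes on either strand. Of all windows 8.68% held them. The 9 windows, some of which overlap, are too few to tell 0 from that share.

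Impact, Zrsr1 and Nnat, known as paternally expressed, were expressed from both alleles in most clones in which they had a ratio, which goes against the label of imprinted loci. For Nnat this rests on 0.295% to 0.424% of its reads, in the rRNA-depleted Ch clones alone. For Zrsr1 the part of misplaced reads from the related gene Zrsr2 was not tested. The hosts Commd1 and Blcap and the main transcript of Gnas are known to be expressed from both alleles in many or most cell types. Over the clones with a ratio, Zrsr1 was biallelic in 12 of 12, Commd1 in 12 of 12, Blcap in 11 of 12, Impact in 9 of 12, Gnas in 8 of 11 and Nnat in 4 of 4. The only monoallelic values were those of Impact in 2 clones. As the background, 58.8% of the 9581 autosomal genes with a ratio in all 12 clones were biallelic in all 12, and the medians of the autosomal ratios lay between 48.8% and 49.9%.

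**Figure D1:**
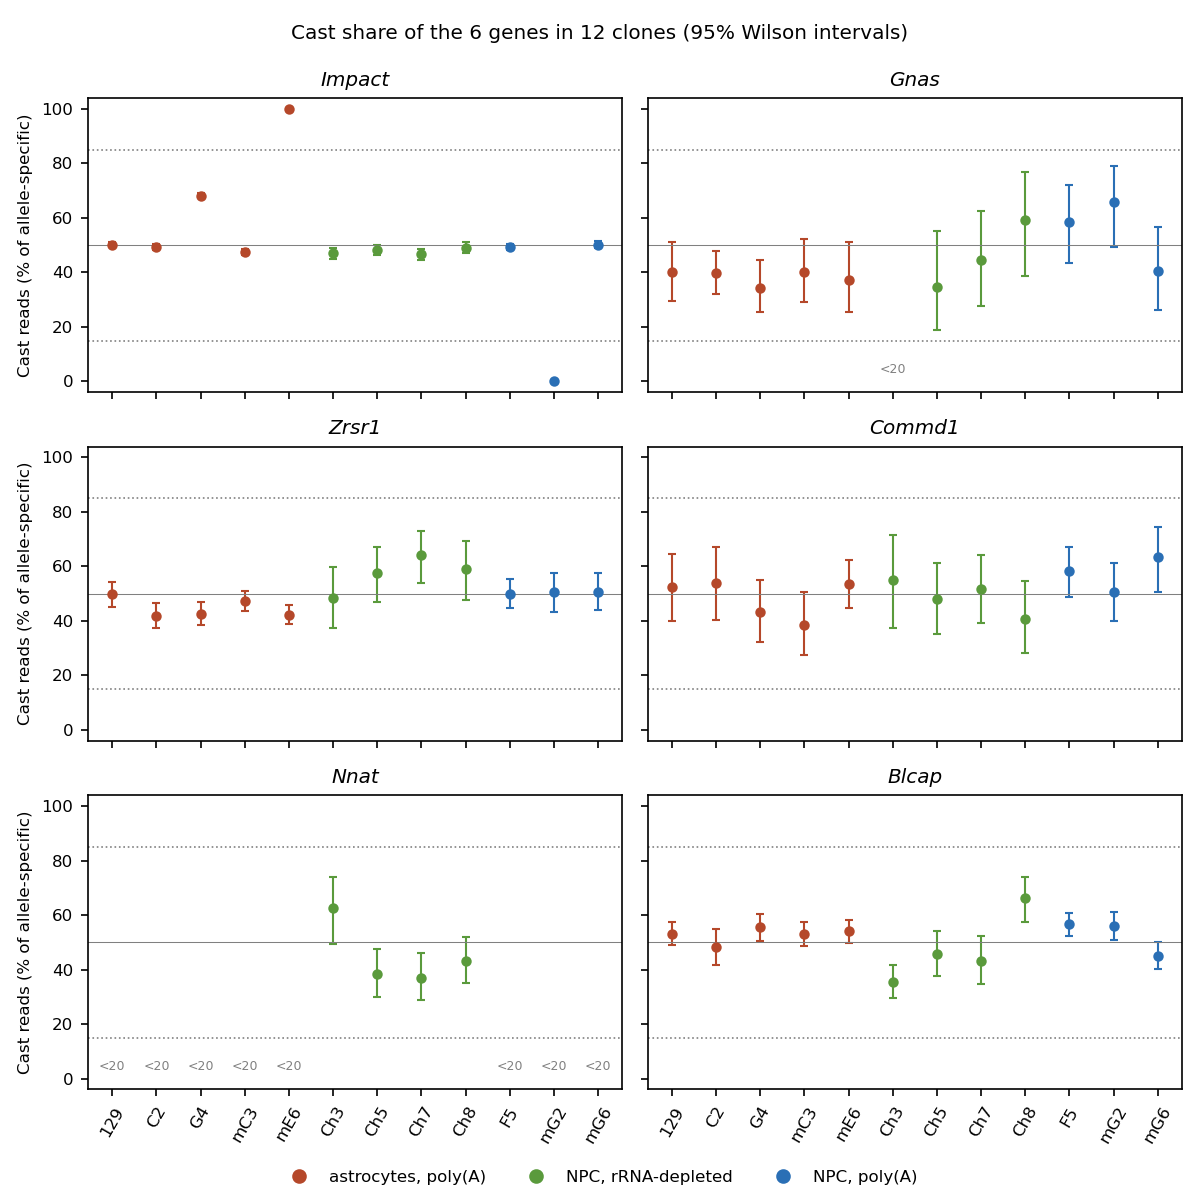
Cast reads as percent of allele-specific reads (y axis) for each of the 6 genes in the 12 clones (x axis), with 95% Wilson intervals that cover counting error only; dotted lines mark 15% and 85%, and <20 marks clones with too few allele-specific reads. Impact stands at 99.98% in mE6 and at 0.121% in mG2, and the other genes lie between 34.4% and 66.1%.

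Impact (ENSMUSG00000024423.5, chromosome 18, 12954690 to 12992950, GRCm38) encodes an inhibitor of the GCN1 and GCN2 arm of the amino acid starvation response. Its ratio was measured well, with 2247 to 11470 allele-specific reads a clone, which were 36.1% to 50.3% of its reads. In the astrocytes the Cast share was 50.2% in clone 129, 49.2% in C2, 68.1% in G4, 47.5% in mC3 and 99.98% in mE6, where 4559 reads were Cast and 1 was 129. In the NPCs it was 46.9% in Ch3, 48.3% in Ch5, 46.7% in Ch7, 49.0% in Ch8, 49.4% in F5, 0.121% in mG2 and 50.1% in mG6. Astrocytes mE6 and NPC mG2 were thus monoallelic from opposite alleles, G4 was biased to Cast, and the other 9 clones stood within a few percent of each other.

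The neighbours of Impact separate these 3 clones. The 4 nearest genes on each side with a ratio in at least 10 clones were Npc1, Ankrd29, Ttc39c, Osbpl1a, Zfp521, Ss18, Taf4b and Kctd1, from 12819 to 1975735 bases away. In mE6 their median Cast share was 48.3%, from 27.4% at Ttc39c to 60.7% at Kctd1, and Osbpl1a, the nearest, stood at 45.9% with 5201 allele-specific reads. In mG2 all 8 were at 0 to 0.452% Cast. In G4 their median was 65.7%, close to the 68.1% of Impact.

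The same held along the chromosome. In mG2, 319 of the 320 chromosome 18 genes with a ratio were under 15% Cast. The level of the chromosome was taken as the median, over its genes, of the CPM relative to the mean of the other clones. This was divided by the same median over the other autosomes. It was 1.00 in mG2, set against the other poly(A) NPCs. In G4 the median Cast share of 326 genes was 65.2% and this level was 1.45, set against the other astrocytes. In mE6 the median Cast share of 318 genes was 49.2%, with 270 of them between 35% and 65%. Its level of the chromosome was 0.871, set against the other astrocytes. The same measure was 0.921 in clone 129, 0.928 in C2 and 0.904 in mC3, each set against peers that include G4. The 9 other clones had medians of 48.8% to 50.1%. With the clones G4 and mG2 left aside, Impact was biallelic in 9 of 10 clones, the exception being mE6.

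**Figure D2:**
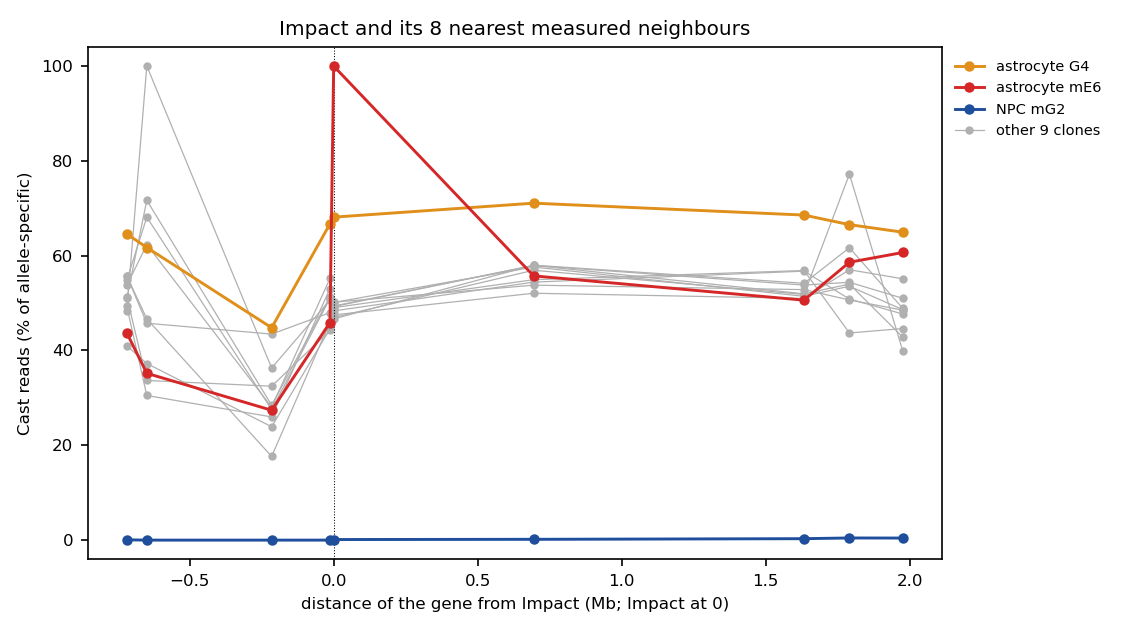
Cast reads as percent of allele-specific reads (y axis) for Impact, at 0, and its 8 nearest measured neighbours by distance in Mb (x axis), 1 line a clone. In mE6 Impact rises to 99.98% between neighbours at 45.9% and 55.7%, whereas in mG2 all genes lie at 0.452% or less and in G4 Impact, at 68.1%, lies beside neighbours with a median of 65.7%.

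The level of Impact was 262.7 CPM in astrocytes of clone 129, 191.0 in C2, 293.0 in G4, 186.7 in mC3 and 96.4 in mE6. The monoallelic clone mE6 was thus the lowest of the astrocytes, at 0.413 times the mean of the other 4, and the biased clone G4 was the highest. Split by allele, mE6 had 48.5 CPM of Cast reads and 0.0106 CPM of 129 reads, and the other astrocytes had 43.5 to 94.3 CPM from Cast and 44.1 to 64.8 CPM from 129. The Cast level of mE6 lay within the range of the other 4 clones, whereas its 129 level lay below all of them. In the poly(A) NPCs the level was 177.1 CPM in F5, 134.5 in mG2 and 170.4 in mG6, and mG2 had 58.9 CPM of 129 reads against 41.1 in F5 and 38.8 in mG6. The Ch clones had 123.0, 152.0, 114.6 and 125.3 CPM. With 1 library for mE6 and for mG2 these values have no replicate within the clone.

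Impact did not pass the test between astrocytes and poly(A) NPCs (edgeR, log2 fold change 0.40, SE 0.33, adjusted p = 0.402), nor between the Cast and 129 alleles over the 5 astrocytes (log2 ratio 0.98, SE 1.44, adjusted p = 0.644) or the 7 NPC clones (log2 ratio −0.58, SE 0.95, adjusted p = 0.663). Over the 4 Ch clones alone the Cast allele was lower, by a log2 ratio of −0.13 (edgeR, adjusted p = 0.0451), where 34.6% of 10754 genes were called, 22% lower from Cast, and the median log2 ratio of all genes was −0.04. As the background of the wider allelic tests, 28.9% of 11554 genes were called in the astrocytes and 39.2% of 10713 in the NPCs. Across the Ch clones neither the level (adjusted p = 0.109) nor the ratio (adjusted p = 0.872) of Impact passed.

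Zrsr1 (ENSMUSG00000044068.6, chromosome 11, 22972005 to 22976496) is a retrotransposed copy of the X-linked splicing factor gene Zrsr2, which takes part in recognition of the 3′ splice site. It lies within the span of Commd1 (ENSMUSG00000051355.18, chromosome 11, 22899728 to 22984539), which encodes a member of a protein complex in endosomal sorting and copper handling. The Cast share of Zrsr1 in the astrocytes was 49.8% in clone 129, 41.9% in C2, 42.7% in G4, 47.3% in mC3 and 42.4% in mE6, over 454 to 760 allele-specific reads. It was 50% in F5, 50.5% in mG2 and 50.7% in mG6. In the Ch clones it was 48.6%, 57.5%, 64.1% and 59.0% in Ch3, Ch5, Ch7 and Ch8, over only 72 to 92 reads, with Wilson intervals from 37.4% to 73.2%. Every clone was biallelic, with a mean of 50.4% ± 6.89 (SD, n = 12).

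The Cast allele of Zrsr1 was the lower one in 5 of 5 astrocyte clones, in clone 129 only by 232 against 234 reads. The difference missed the threshold (edgeR, log2 ratio −0.30, SE 0.09, adjusted p = 0.0624). It passed with DESeq2 (adjusted p = 0.0147) and without clone 129 (edgeR, adjusted p = 0.0378). Over all fits with 1 clone left out the edgeR adjusted p ran from 0.0378 to 0.173. In the NPCs the log2 ratio was 0.25 (SE 0.13, adjusted p = 0.178), and the allele by cell type term did not pass (adjusted p = 0.332). In each of the 4 Ch clones the second library gave a higher Cast share than the first, for example 73.8% against 56.0% in Ch7, with a smallest unadjusted Fisher's exact p of 0.0359 and adjusted p of 0.862 over 24 gene and clone pairs. Across the Ch clones the ratio did not pass (edgeR, adjusted p = 0.828).

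Reads of Zrsr1 and its paralog Zrsr2 may not be fully separable. In the 8 male clones Zrsr2 had 0 to 4 Cast reads beside 346 to 1858 reads of the 129 allele, the X chromosome of a male being maternal, whereas Zrsr1 was biallelic in the same clones. In the female astrocytes of clone 129, Zrsr2 was at 99.9% Cast and Zrsr1 at 49.8%. The ratio of Zrsr1 did not follow that of Zrsr2 in these 9 clones. This cannot tell whether reads of Zrsr2 were counted for Zrsr1. Such a read would be assigned by its base at the strain differences of Zrsr1, whichever X allele it came from. The share of such reads was not tested.

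The host Commd1 was biallelic in 12 of 12 clones too, from 38.5% in astrocytes mC3 to 63.3% in NPC mG6, with a mean of 50.8% ± 7.17 (SD, n = 12) over 29 to 123 allele-specific reads. The paired difference of Zrsr1 minus Commd1 was −0.468 percentage points ± 10.4 (SD, n = 12), with 4 clones above 0 and 8 below (exact two-sided permutation p = 0.872, adjusted p = 0.875 over 5 such tests). This mean pools sets of opposite sign. It was −3.61 points in astrocytes, with 4 of 5 below 0, and −6.96 in poly(A) NPCs, with 3 of 3 below. In the Ch clones it was 8.33 points, with 3 of 4 above 0 (unadjusted exact permutation p = 0.3125, 0.25 and 0.25). At these depths a single ratio of Commd1 has a Wilson interval of 17.4 to 34.0 points in width, so that smaller differences between the nested gene and its host were not detectable in 1 clone. Commd1 minus the median of its 8 neighbours was −0.346 points ± 7.38 (SD, n = 12, exact permutation p = 0.875).

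The level of Zrsr1 was higher in astrocytes, at 45.9 CPM in clone 129, 44.8 in C2, 53.0 in G4, 78.2 in mC3 and 67.0 in mE6, than in the poly(A) NPCs, at 28.0 in F5, 25.4 in mG2 and 25.5 in mG6. The groups did not overlap, and the means were 57.8 ± 14.4 (SD, n = 5) and 26.3 ± 1.43 CPM (SD, n = 3). The log2 fold change was 1.19 (SE 0.23, edgeR adjusted p = 0.0081), and it stayed between 1.07 and 1.28 with each clone left out (adjusted p = 0.00547 to 0.0433), but with both G4 and mG2 left aside the adjusted p was 0.0705 at a log2 fold change of 1.16. In this comparison 2 of the 6 genes were called, Zrsr1 and Gnas, both higher, against 25.5% of 18192 genes called in either direction and 13% called higher. In bulk samples more RNA per cell and more cells that express a gene cannot be told apart. Commd1 had 10.7 to 25.4 CPM in astrocytes and 17.3 to 26.0 CPM in poly(A) NPCs, overlapping groups that did not pass the test (log2 fold change −0.27, SE 0.31, edgeR adjusted p = 0.562). The Ch clones had 12.6 to 16.8 CPM of Zrsr1 and 17.98 to 25.5 CPM of Commd1, and neither passed the test across the 4 clones (edgeR, adjusted p = 0.301 and 0.0655).

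**Figure D3:**
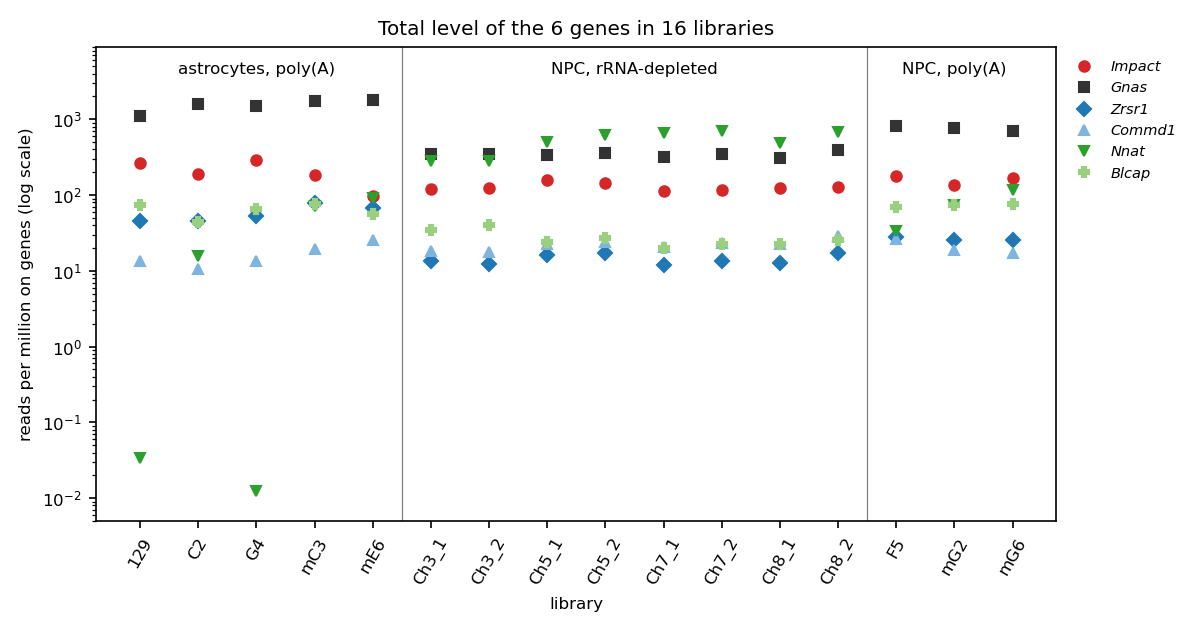
Level in CPM on a log scale (y axis) for the 6 genes in the 16 libraries (x axis), with vertical lines between astrocytes, rRNA-depleted NPCs and poly(A) NPCs. Zrsr1 lies at 44.8 to 78.2 CPM in astrocytes and 25.4 to 28.0 in poly(A) NPCs, Gnas lies highest among the 6 in every poly(A) library, and Nnat falls to 0.034 and 0.0125 CPM in 2 astrocyte clones.

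Nnat (ENSMUSG00000067786.16, chromosome 2, 157560078 to 157562525) encodes neuronatin, a small membrane protein of the endoplasmic reticulum of developing brain. It lies within Blcap (ENSMUSG00000067787.10, chromosome 2, 157556362 to 157566361), named for its loss in bladder cancer and known for RNA editing of its transcript. The level of Nnat varied most among the 6 genes. In astrocytes it was 0.034 CPM in clone 129 (3 reads), 15.6 in C2, 0.0125 in G4 (1 read), 70.8 in mC3 and 92.6 in mE6. The male clones were high and 2 of the 3 female clones were near 0. In poly(A) NPCs it was 33.1 CPM in the female clone F5 and 73.8 and 116.0 in the male clones mG2 and mG6. The groups overlapped, and the test between astrocytes and poly(A) NPCs did not pass (log2 fold change −0.99, SE 1.77, edgeR adjusted p = 0.721).

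In the Ch clones Nnat reached 282.3 CPM in Ch3, 557.0 in Ch5, 675.0 in Ch7 and 578.1 in Ch8. The 2 libraries of Ch3, at 280.4 and 283.7 CPM, lay below all 6 libraries of the other clones, at 485.1 to 699.2 CPM, and the level differed between the 4 clones (edgeR, adjusted p = 0.000494). Ch3 was at 0.468 times the mean of the other 3. Of the 6 genes, 2 were called for level across the Ch clones, Nnat and Blcap, against 16.6% of 17095 genes.

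Blcap went the other way in Ch3. Its level was 37.5 CPM in Ch3, 25.2 in Ch5, 21.1 in Ch7 and 24.0 in Ch8, and the libraries of Ch3, at 34.5 and 39.7 CPM, lay above all others, at 19.9 to 26.8 CPM (edgeR, adjusted p = 0.000815). In the clone with the least Nnat the host was thus 1.60 times the mean of the other 3 clones. In astrocytes Blcap had 74.2, 43.6, 65.3, 77.4 and 56.6 CPM in clones 129, C2, G4, mC3 and mE6, and in poly(A) NPCs 69.0, 72.9 and 75.2 CPM in F5, mG2 and mG6, without a difference past the threshold (log2 fold change −0.15, SE 0.18, edgeR adjusted p = 0.599). Astrocytes 129 and G4, with almost no Nnat reads, lay within the range of Blcap in the other clones.

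Only 0.295% to 0.424% of the Nnat reads in the Ch clones carried an allele, and 0 to 3 reads in each poly(A) library, so that Nnat had a ratio in the 4 Ch clones alone. It was 62.5% in Ch3 (35 Cast and 21 129 reads, Wilson interval 49.4% to 74.0%), 38.4% in Ch5, 37.1% in Ch7 and 43.3% in Ch8 (55 and 72 reads). The differences between clones did not pass the test (edgeR, adjusted p = 0.332), and over the 7 NPC clones the alleles did not pass it either (log2 ratio −0.46, SE 0.45, adjusted p = 0.453). In all 4 clones reads of both alleles were counted, with 21 or more reads of each. In the poly(A) NPCs, with 3505 to 9482 Nnat reads a clone, only 0.0105% to 0.0856% carried an allele. Whether the ratio of the Ch clones holds for the Nnat RNA in poly(A) libraries was not tested.

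Blcap had a ratio in every clone, over 120 to 552 reads. In astrocytes it was 53.2%, 48.4%, 55.6%, 53.1% and 54.0% in clones 129, C2, G4, mC3 and mE6. In poly(A) NPCs it was 56.6% in F5, 56.0% in mG2 and 45.1% in mG6. In the Ch clones it was 35.5% in Ch3, 45.9% in Ch5, 43.3% in Ch7 and 66.1% in Ch8, the only biased value. The libraries of Ch3 gave 39.4% and 32.3% and those of Ch8 64.1% and 68.3%, which do not overlap. The ratio differed between the 4 clones (edgeR, adjusted p = 0.00414), 1 of the 5 genes tested, against 9.67% of 9960 genes. The difference was not past the threshold with DESeq2 (adjusted p = 0.392) or without the first or the second Ch8 library (edgeR, adjusted p = 0.0502 and 0.136).

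The direction was not shared by the nested gene. Ch3 had the highest Cast share of Nnat and the lowest of Blcap. The paired difference of Nnat minus Blcap was −2.38 percentage points ± 21.0 (SD, n = 4, exact permutation p = 0.75), where 4 clones cannot give a p under 0.125. Blcap minus the median of its 8 neighbours was 2.27 points ± 8.42 (SD, n = 12, exact permutation p = 0.389).

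**Figure D4:**
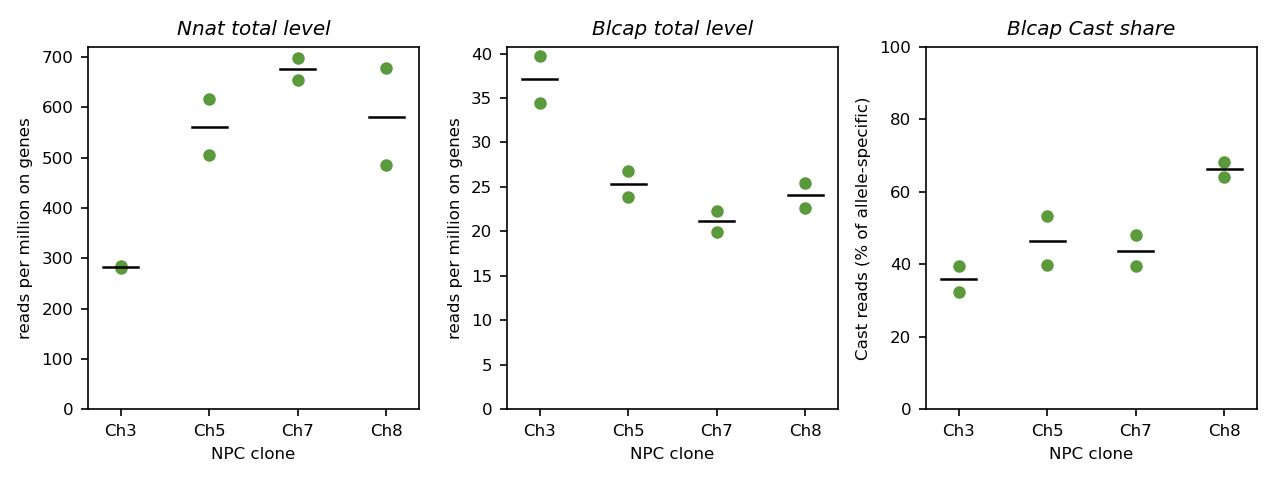
Total level of Nnat (left) and Blcap (middle) in CPM and the Cast share of Blcap in percent (right) in the 4 NPC clones with 2 libraries each (x axis); points are libraries and lines their mean. Ch3 is lowest for Nnat, at 280.4 and 283.7 CPM, highest for the level of Blcap, at 34.5 and 39.7 CPM, and lowest for its Cast share, at 39.4% and 32.3%.

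Gnas (ENSMUSG00000027523.19, chromosome 2, 174284320 to 174346744) encodes the alpha subunit of the stimulatory G protein, which couples receptors to adenylyl cyclase, along with other products of the same locus that the gene counts do not separate. It was the most counted of the 6 in the poly(A) libraries. Its level in astrocytes was 1116 CPM in clone 129, 1613 in C2, 1512 in G4, 1733 in mC3 and 1794 in mE6, and in poly(A) NPCs 808.4 in F5, 759.7 in mG2 and 709.9 in mG6. Every astrocyte clone lay above every poly(A) NPC, with means of 1553 ± 268 (SD, n = 5) and 759.3 ± 49.2 CPM (SD, n = 3). The log2 fold change was 1.09 (SE 0.24, edgeR adjusted p = 0.0129). It missed the threshold without mG2 (adjusted p = 0.0611), without mG6 (adjusted p = 0.0589) and with both G4 and mG2 left aside (adjusted p = 0.0944), at log2 fold changes of 1.01 to 1.07. The Ch clones lay between 334.2 and 352.1 CPM and did not pass the test across clones (edgeR, adjusted p = 0.858).

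Only 0.0303% to 0.139% of the Gnas reads carried an allele, 11 to 141 a clone, so its ratio rests on a very small part of its reads. In astrocytes the Cast share was 40.0%, 39.7%, 34.4%, 40.0% and 37.3% in clones 129, C2, G4, mC3 and mE6, all below 50%. The Cast allele was lower in the astrocytes (edgeR, log2 ratio −0.69, SE 0.11, adjusted p = 0.0112, and 0.0285 to 0.0431 with each clone left out). It was the only 1 of the 5 genes tested that was called, against 28.9% of genes in either direction and 17.3% lower from Cast. In the poly(A) NPCs the ratio was 58.5% in F5, 65.7% in mG2 and 40.5% in mG6, and in Ch5, Ch7 and Ch8 34.8%, 44.4% and 59.1% over 22 to 27 reads. These overlap with the astrocytes, and the allele by cell type term did not pass (log2 difference −0.98, SE 0.33, edgeR adjusted p = 0.241). In that comparison 0 of 5 genes were called with edgeR and 0.715% of 11461 genes in all. With DESeq2 in place of edgeR 0 of 5 were called too, against 646 of 11461 genes. At an unadjusted p under 0.05 with edgeR 2 of the 5 passed, Gnas and Zrsr1, against 1608 of 11461 genes.

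Against the median of its 8 neighbours the Cast share of Gnas was lower by a mean of −11.2 points ± 3.61 in the astrocytes (SD, n = 5, exact permutation p = 0.0625, the smallest that 5 clones allow) and lower in 5 of 5. Over the 11 clones with a ratio the difference was −4.30 points ± 10.7 (SD, n = 11, exact permutation p = 0.211, adjusted p = 0.875). Nespas, an antisense RNA of the same locus that is known as paternally expressed, had a ratio only in the Ch clones, at 59.6%, 43.1%, 37.8% and 54.5% in Ch3, Ch5, Ch7 and Ch8, biallelic in 4 of 4.

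Other imprinted genes in the same libraries serve as the scale. Of 19 other genes known as paternally expressed, 16 had a ratio in at least 1 clone, giving 165 values, of which 67 were over 85% Cast, 9 under 15%, 70 biallelic and 19 biased. Of 13 known as maternally expressed, 7 had a ratio, and of their 41 values 11 were under 15%, 3 over 85%, 19 biallelic and 8 biased. Peg3, a zinc finger gene of the paternal group, was over 85% in 7 of 12 clones and Snrpn, a splicing gene of the Prader-Willi region, in 9 of 12, while Igf2r, the maternally expressed clearance receptor of IGF2, was under 15% in 7 of 12. Mkrn3 was over 85% in 0 of 12 clones and biallelic in 11, and Peg12 and Mcts2 were each biallelic in 9 of 12.

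The counts differed between clones. In mE6, where Impact was Cast only, 9 of 13 paternal genes with a ratio were over 85%. In mG2, where Impact was at 0.121% Cast like the genes around it, 11 of 15 were. In Ch3, Ch5, Ch7 and Ch8, 9 of 15, 6 of 14, 7 of 15 and 7 of 14 were over 85%, whereas Impact, Zrsr1 and Nnat were biallelic in all 4. In astrocytes mC3 8 of 14 were over 85%, in NPC mG6 5 of 15, in astrocytes 129 3 of 11, in G4 2 of 13, in C2 0 of 13 and in F5 0 of 13. The female clones were thus the lowest 4. Impact was biallelic or biased in each of them, and biallelic in the male clones mC3, mG6, Ch3, Ch5, Ch7 and Ch8 too. These counts are a description over named genes, several of which share a cluster, and were not tested.

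**Figure D5:**
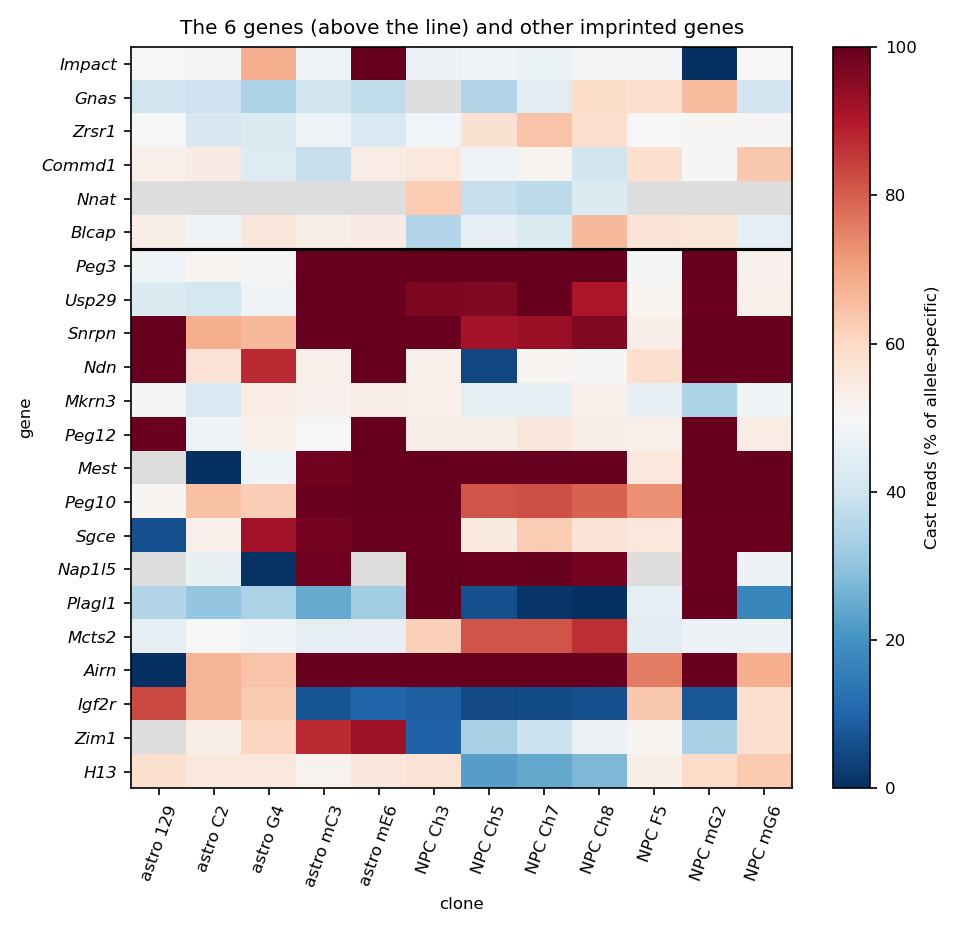
Cast reads as percent of allele-specific reads (colour) in the 12 clones (x axis) for the 6 genes, above the line, and the other imprinted genes with a ratio in at least 9 clones (y axis); grey marks fewer than 20 allele-specific reads. Peg3 and Snrpn are over 85% Cast in 7 and 9 of 12 clones, and Peg12, Mcts2 and Mkrn3 in 3, 1 and 0 of 12. Zrsr1 and its host Commd1 stay between 38.5% and 64.1% in all.

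The genes that work with these 6 were counted in the comparison of astrocytes with poly(A) NPCs, in which the median log2 fold change of all genes was 0.08, and 25.5% of genes were called, 13% higher and 12.6% lower in astrocytes. Of 22 genes of the Gs and cAMP pathway, 5 rose and 0 fell in astrocytes, with a median log2 fold change of 0.31, a share near the 25.5% called among all genes. They were the G protein subunit gene Gng2 (1.32), the adenylyl cyclases Adcy1 (1.41) and Adcy7 (3.87), the protein kinase A subunit gene Prkacb (0.97) and the cAMP-responsive factor Crem (0.76). Of 6 genes of the GCN2 response, Trib3 rose (2.13) and Eif2s1, the target of the kinase, fell (−1.01), while the kinase gene Eif2ak4 did not pass (−0.02, edgeR adjusted p = 0.966). Of 7 genes of 3′ splice site recognition, U2af2 fell (−0.70), and Zrsr2 did not pass (−0.12, edgeR adjusted p = 0.821). The 11 genes of the complex of Commd1 had adjusted p-values of 0.102 (edgeR, Commd8) or more and the 3 genes of the ADAR editing enzymes, which edit transcripts such as that of Blcap, of 0.22 (edgeR, Adarb1) or more. Of 3 calcium pump genes tested, the proposed partners of neuronatin, Atp2a3 rose (4.003).

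Of 9 tested genes that keep imprints, 3 fell in astrocytes and 0 rose, with a median log2 fold change of −0.45, where 25.5% of all genes were called and 12.6% fell. Uhrf1, which brings the maintenance methyltransferase to DNA after replication, fell from 131 ± 27.4 CPM (SD, n = 3) in poly(A) NPCs to 4.48 ± 1.29 CPM (SD, n = 5) in astrocytes (log2 fold change −4.82, SE 0.26, edgeR adjusted p = 2.56e-05). Dnmt1, that methyltransferase, fell too (−1.41, SE 0.28, edgeR adjusted p = 0.00957), as did Trim28, a partner of ZFP57 (−0.89, SE 0.23, edgeR adjusted p = 0.025). The proliferation marker Mki67 fell with them (−8.43), and its part in these values was not tested. Zfp57 itself ranged from 0.404 to 37.1 CPM among astrocytes and did not pass (−0.05, edgeR adjusted p = 0.98).

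Over the 8 poly(A) libraries, the genes whose log2(CPM + 1) was most like that of a member, among 12889 genes of at least 1 CPM, were Npr2 for Impact (Pearson's r = 0.957), BC024659 for Zrsr1 (0.994), Fam162a for Commd1 (0.987), Tmem229a for Nnat (0.984), Rapgef1 for Blcap (0.933) and Tpbg for Gnas (0.997). These are descriptions over 8 libraries of 2 cell types, picked as the highest of many genes.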

How the data were processed

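The authors masked the mouse genome (GRCm38, mm10) at SNPs between the strains, aligned reads with TopHat2 (2.1.0) and Bowtie2, assigned them to an allele with SNPsplit and counted read pairs per gene by strand with featureCounts (1.5.1). The annotation version is not given in the sources used here. The deposited values are unnormalized counts of Cast, 129 and all reads for 50600 genes. The authors also deposited the Cast share as a fraction, which was not used.

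Symbols (32722 genes) and GRCm38 positions (26023) came from reference tables. Ratios used at least 20 allele-specific reads, with the 2 libraries of a Ch clone summed and 95% Wilson intervals that cover counting error only. Tests across genes used edgeR 4.0.16 (quasi-likelihood, filterByExpr, Benjamini-Hochberg, threshold 0.05). Total reads were compared with TMM between 5 astrocyte and 3 poly(A) NPC libraries and across the 4 Ch clones. Cast and 129 reads were compared within clones, with 1 library size for both alleles. Paired differences used exact two-sided sign flips, adjusted over 5. Libraries of a Ch clone come from 1 clone and nothing in the labels says that they are separate cultures, so p-values across Ch clones measure the spread between libraries. The 2 libraries of each clone differed by more than sampling noise.

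Alternatives were DESeq2 1.42.0, other scaling, no filter, other read minimums and leaving out clones or libraries. Leaving aside G4 and mG2 together was added after seeing the data. Scripts were tested on simulated data. The members and lists were chosen with earlier results of these data known. The genes named are the 6 members, their 4 nearest measured genes on each side, genes of the lists, and the genes most alike. Nespas and Zrsr2 belong to these lists. Fits ran in R 4.3.3. Other steps ran in Python 3.11.15, with scipy 1.17.1 for the exact tests, pandas 2.3.3 for the tables, numpy 2.4.6 for arrays and matplotlib 3.10.9 for plots.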

Additional observations from a re-analysis of the deposited data

How the results depend on the processing

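Of 151 values that answer a comparison, recomputed under alternatives, 128 kept their direction and their side of the threshold or stayed within 1.5 times, 2 rose and 21 fell, and 0 reversed. Of 358 for single genes, 346 stayed, 5 passed newly and 7 were lost. The number of genes called between astrocytes and poly(A) NPCs was 4644 and 1501 with G4 and mG2 left aside, a fit with fewer samples. With single clones left out it was 2269 to 4849, the lowest without mG2. Between the alleles it was 3335 in astrocytes (1914 to 3005 with clones left out, the lowest without mC3) and 4201 in NPCs (3488 to 3939), or 2084 in the 3 poly(A) NPCs alone, with fewer samples. The allele by cell type term called 82 genes, 646 with DESeq2, 49 without the filter and 5 to 94 with clones left out, the lowest without F5. Across the Ch clones, 2834 genes were called for level, 4361 without the filter, with more genes tested, and 1509 to 3245 with libraries left out, the lowest without the second Ch3 library. For the ratio 963 were called, 584 with DESeq2 and 811 to 1102 with libraries left out. Where no cause is named, the cause was not tested.

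TMM over the allele columns changed the split of calls between higher and lower from Cast in astrocytes from 1334 and 2001 to 1620 and 1592, and in NPCs from 1580 and 2621 to 2061 and 2042. The median log2 ratio of all genes was −0.03 and −0.05 without it. The replicate numbers of the Ch libraries did not pair them (correlations of deviations of −0.355 to 0.467). With the replicate block, 3391 genes were called for level and 951 for ratio, and no call for the 6 genes changed. Commd1 passed for level across the Ch clones without the filter (adjusted p = 0.0138) and without the first Ch8 library (adjusted p = 0.0313). Few allele-specific reads limit the ratios of Gnas, Nnat and Commd1. The difference of Nnat and Blcap could not be computed within astrocytes or poly(A) NPCs, where Nnat had no ratio.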

Other observations

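Mcts2 and H13 on chromosome 2 form a further pair of an imprinted gene nested in a host. Mcts2, a translation factor copy known as paternally expressed, was at 45.3%, 49.7%, 48.4%, 45.5% and 45.9% Cast in astrocytes 129, C2, G4, mC3 and mE6 and at 44.3%, 47.1% and 47.2% in the poly(A) NPCs F5, mG2 and mG6. In the Ch clones it was 61.9% in Ch3, 81.4% in Ch5, 81.6% in Ch7 and 86.7% in Ch8, over 84 to 113 reads. H13, a signal peptide peptidase and the host, was at 57.2% in Ch3 and at 22.5%, 24.4% and 27.6% in Ch5, Ch7 and Ch8, and between 51.7% and 62.9% in the poly(A) libraries. Ch5, Ch7 and Ch8 thus stood apart from Ch3 in both genes of this pair. The level of H13 was 34.9 CPM in Ch3 and 77.05 to 81.1 CPM in the other Ch clones, and that of Mcts2 was 4.56 to 5.71 CPM in the Ch clones and 13.3 to 32.8 CPM in the poly(A) libraries. Between the Ch clones and the others the preparation and the clone cannot be told apart. These values were chosen after they were seen and have no test.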
